A study of Mus musculus with 27 samples.

Results

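Collagens are the main structural proteins of the extracellular matrix, and the kidney genes that encode their chains were followed here over 9 ischemia times. The chains were taken by symbol, as every listed gene named Col, a type number, the letter a and a chain number, with a level above 0 FPKM (a read density, corrected for the length of the transcript and for the size of the library) in at least 3 of 27 kidneys. Of 44 such symbols, 43 passed, out of 18188 genes tested and 19392 listed. The chain left out, Col9a1, was above 0 in 2 kidneys. All 27 kidneys were left kidneys of C57BL/6 mice whose right kidney had been removed in the same operation. The left renal pedicle was clamped for 16, 18, 20, 22, 24, 26, 28 or 30 min, or for 0 min in sham mice, on a platform at body temperature. Blood then flowed for 24 h until the kidney was taken, and each time had 3 mice. The sham mice had therefore also lost a kidney, and whole kidneys were sequenced, so that a smaller number of cells of a type and less RNA per cell cannot be told apart. Sex and age of the mice were not given in the labels.

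Each collagen molecule is a triple helix of 3 chains. Fibrillar chains (types I, III and V among others) build the interstitial fibers that accumulate in scarred kidneys and are made mainly by fibroblasts and pericytes. Type IV chains form the sheet of the basement membrane, with Col4a1 and Col4a2 in nearly all basement membranes and Col4a3, Col4a4 and Col4a5 in the mature glomerular basement membrane, the site of Alport syndrome. The other chains tie fibers and membranes together or sit in the cell membrane.

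Since members of the same class moved in different directions, their genomic neighborhood is given first. In the GENCODE M21 annotation, Col4a1 and Col4a2 lie head to head on chromosome 8 with starts 21 bases apart, and Col4a3 and Col4a4 lie head to head on chromosome 1 with starts 72 bases apart. Col4a5 and Col4a6 are another such pair on chromosome X, with starts 1309 bases apart. Col3a1 and Col5a2 face each other tail to tail on chromosome 1, with 24614 bases between them. The ratio within the first and within the second of these pairs varied little over all kidneys. Within the third, Col4a6 over Col4a5 ranged from 0.0437 to 0.135, with Col4a6 at a mean of 0.713 FPKM. The ratio of Col5a2 over Col3a1 varied widely, from 0.0757 to 2.72. Col6a1 and Col6a2 lie on the same strand of chromosome 10, with 85161 bases between them. The ratio of Col6a2 over Col6a1 was 0.587 to 0.843. The part of gene position in these ratios was not tested. Of the 44 chains, 35 had an entry in the RefSeq promoter table (GRCm38.p6), and Col12a1, Col14a1, Col1a1, Col22a1, Col26a1, Col2a1, Col4a3, Col5a2 and Col9a3 had none. The 250 bases before the start are printed for a pair of fibrillar chains that were higher at every ischemia time and for Col18a1, a basement membrane zone chain that was highest at 30 min. Capitals mark matches on either strand to the TATA box letters TATAAA, to the CCAAT box or to GGGCGG, the letters that Sp1 binds, and no match overlapped another.
Col1a2 (chr6:4505368-4505617, plus strand): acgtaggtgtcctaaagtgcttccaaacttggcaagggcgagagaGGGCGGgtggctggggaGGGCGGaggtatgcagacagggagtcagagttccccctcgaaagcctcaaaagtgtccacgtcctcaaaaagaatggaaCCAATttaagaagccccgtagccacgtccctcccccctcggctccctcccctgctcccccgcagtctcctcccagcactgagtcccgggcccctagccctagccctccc
Col3a1 (chr1:45311288-45311537, plus strand): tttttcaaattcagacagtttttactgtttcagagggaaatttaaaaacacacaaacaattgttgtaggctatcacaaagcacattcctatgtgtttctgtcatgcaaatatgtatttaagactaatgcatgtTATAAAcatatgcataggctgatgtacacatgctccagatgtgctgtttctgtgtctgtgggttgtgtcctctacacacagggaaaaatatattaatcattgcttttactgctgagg
Col18a1 (chr10:77166531-77166780, minus strand): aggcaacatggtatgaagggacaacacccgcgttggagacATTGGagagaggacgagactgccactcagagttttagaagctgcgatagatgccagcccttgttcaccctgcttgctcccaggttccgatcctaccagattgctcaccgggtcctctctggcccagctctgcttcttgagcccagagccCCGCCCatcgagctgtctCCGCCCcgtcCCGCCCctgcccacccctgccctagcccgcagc
The Col1a2 and Col18a1 windows each had a CCAAT match and several GGGCGG matches, and the Col3a1 window held only a TATAAA match. Col18a1 has another promoter entry, not printed, with none of these matches. Over the 38 promoter windows of collagen chains, 57.9% held GGGCGG, against 32.7% of all 32851 promoter windows of that length. CCAAT was in 34.2% against 33.8%, TATAAA in 13.2% against 12.4%, and TGANTCA, the letters that AP-1 binds, in 2.63% against 6.75%. These shares are descriptions of the windows and name no site.

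The collagen chains covered a wide range of levels. Of the 43 chains, 22 had a mean of at least 1 FPKM over all kidneys, 21 were under 1 FPKM and 11 were under 0.1 FPKM. These 11 were Col2a1, Col11a1, Col6a4, Col6a5, Col8a2, Col9a2, Col10a1, Col19a1, Col22a1, Col25a1 and Col28a1, none of which passed 0.12 FPKM in any kidney. In sham kidneys the most abundant chains were those of the basement membrane, with Col4a1 at 43.1 ± 2.65 FPKM, Col4a3 at 38.9 ± 8.30 FPKM, Col18a1 at 36.6 ± 1.99 FPKM, Col4a4 at 34.9 ± 6.08 FPKM and Col4a2 at 30.6 ± 2.91 FPKM (mean ± SD, n = 3). The type I and type III chains were far lower in sham, at 3.81 ± 1.26 FPKM for Col1a1 and 4.78 ± 1.09 FPKM for Col3a1. The summed level of all chains was 248 ± 23.0 FPKM in sham, 566 ± 32.9 FPKM at 24 min and 520 ± 107 FPKM at 30 min (n = 3 each), with no overlap between the clamped groups named and sham. These sums were 0.0462% and 0.105% of the summed FPKM of all genes in sham and at 24 min.

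Markers in the kidneys were checked before the comparisons. All kidneys held proximal tubule markers, with sums of 6 markers from 656 to 3183 FPKM, and 4 skeletal muscle markers summed to at most 0.94 FPKM. The sum of 5 injured tubule markers was 15.8, 16.5 and 90.1 FPKM in sham, and in the third 16 min kidney it was 70.7 FPKM, against 729 and 1023 FPKM in the others of that group. The third 30 min kidney stood apart in 7 smooth muscle and pericyte markers, at 470 FPKM against 197 and 144 FPKM, and in 6 loop and distal nephron markers, at 2895 FPKM against 818 and 849 FPKM. Adipocyte markers summed to 67.3, 18.9 and 51.8 FPKM in 1 kidney each at 18, 20 and 22 min, and to at most 5.04 FPKM elsewhere. Calls that changed without these kidneys are named with the results.

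To ask which collagen chains differed from sham after each ischemia time, each group was compared with the same 3 sham kidneys. A chain was called when its log2 fold change on the log2(FPKM + 1) scale was above 1 in size and its adjusted p from limma's empirical Bayes test (Benjamini-Hochberg, over all 18188 genes) was under 0.05. After 16 min of ischemia 6 of 43 chains were called higher, where 1.28% of all genes were. After 18 min it was 11 chains with 1.97% of all genes, after 20 min 7 chains with 1.55%, and after 22 min 7 chains with 2.09%. After 24 min 10 chains stood against 1.97% of all genes, after 26 min 10 against 2.16%, after 28 min 10 against 4.27%, and after 30 min 10 against 5.14%. A single chain was called lower, Col4a3 at 28 min, where 4.21% of all genes were called lower. No chain was called lower after 16 min (0.979% of all genes were), 18 min (1.09%), 20 min (0.962%), 22 min (1.2%), 24 min (1.15%), 26 min (1.61%) or 30 min (5.59%). The share of chains called higher was thus 14.0% at 16 min and 23.3% at 30 min, above the background at each time. The median log2 fold change over the 43 chains was 0.10 at 24 min and 0.05 at 30 min, since most low chains hardly moved, against -0.01 and 0.00 over all genes. In all, 15 chains were called at 1 or more times, each with a mean of at least 1 FPKM, and 5 were called higher at all 8 times, namely Col1a1, Col1a2, Col3a1, Col5a1 and Col15a1. Without the 3 kidneys with adipocyte markers, each of these counts of higher chains was unchanged. Without the third kidneys of the 0, 16 and 30 min groups, which stood apart in these markers, the 30 min count became 6 higher and 4 lower, the 28 min count 10 higher and 2 lower, and the other counts 7 to 11 higher. In that fit Col1a2 (0.79), Col5a1 (0.98), Col8a1 (0.97) and Col15a1 (0.91) were no longer called at 30 min, and Col4a3 (-1.18), Col4a4 (-1.05), Col5a2 (-1.01) and Col23a1 (-1.02) were called lower. Col5a3 was called at 16 min (1.07) and no longer at 26 min (0.96), and Col6a1 was no longer called at 24 min (0.997). When only the 16 min and sham kidneys were fitted, 0 chains were called at 16 min, and 6 had an adjusted p between 0.0694 and 0.0794 in limma.

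**Figure D1:**
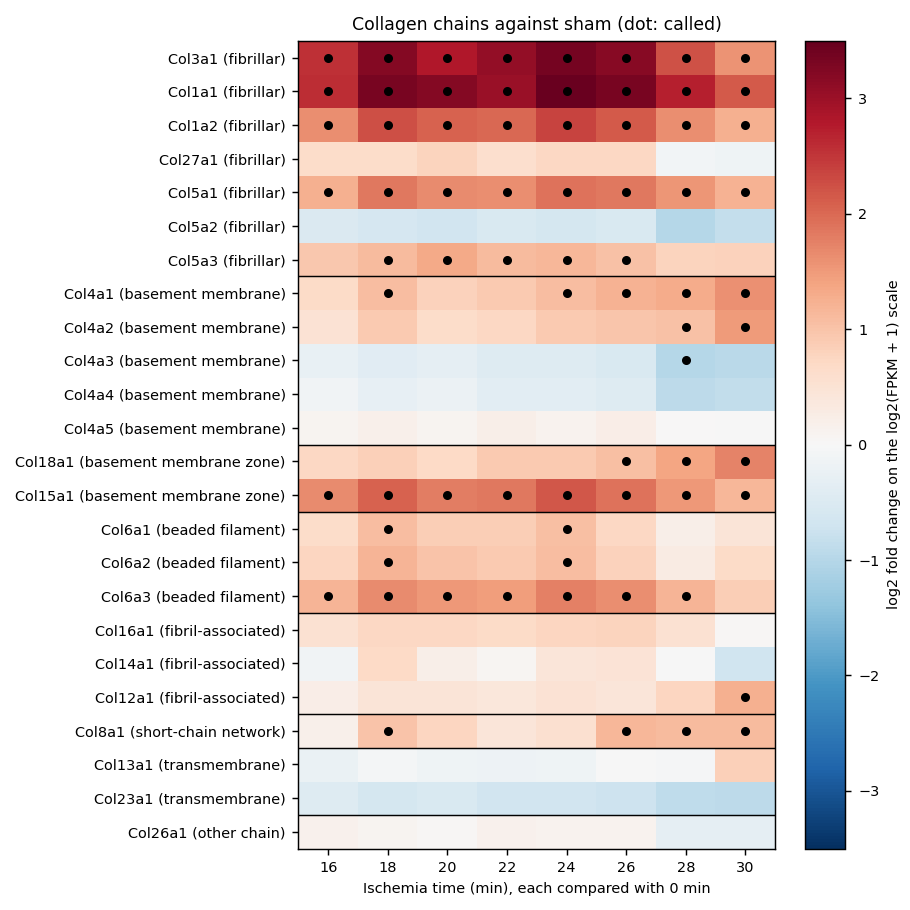
Log2 fold change of 24 collagen chains (rows, by class) at each ischemia time against 0 min (columns), on the log2(FPKM + 1) scale, red higher and blue lower, with a black dot where the chain was called. The fibrillar chains Col1a1, Col3a1, Col1a2 and Col5a1 and the chain Col15a1 have dots at all 8 times, while Col4a2 and Col12a1 have dots only at 28 or 30 min.

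Among the 11 fibrillar chains, 4 or 5 were called higher at each time and none was called lower. Of all genes, 1.28% to 5.14% were called higher and 0.962% to 5.59% lower, depending on the time. Type I collagen, the most abundant fibrillar collagen of the body, is built from Col1a1 and Col1a2 chains. Of the pair, Col1a1 was 5.08, 2.57 and 3.79 FPKM in the sham kidneys, 42.7, 35.7 and 17.3 FPKM at 16 min, and 45.4, 51.2 and 58.1 FPKM at 18 min. It was 53.1, 53.9 and 35.9 FPKM at 20 min, 39.7, 41.4 and 39.8 FPKM at 22 min, and 53.9, 63.2 and 51.8 FPKM at 24 min. It was 57.7, 59.0 and 37.8 FPKM at 26 min, 27.6, 40.1 and 33.7 FPKM at 28 min, and 23.1, 11.4 and 35.6 FPKM at 30 min. All 24 clamped kidneys were above all 3 sham kidneys, the lowest being the second 30 min kidney, and the highest values fell at 18 to 26 min. The log2 fold change of Col1a1 was 2.60 ± 0.32 (SE) at 16 min (limma adjusted p = 3.46e-05), 3.46 ± 0.32 at 24 min (adjusted p = 9e-07) and 2.14 ± 0.32 at 30 min (adjusted p = 1.18e-05). Col1a2 followed the same course at a smaller size, from 7.58 ± 1.99 FPKM in sham to 46.9 ± 3.99 FPKM at 24 min and 22.7 ± 13.1 FPKM at 30 min. Its log2 fold change was 2.38 ± 0.28 at 24 min (limma adjusted p = 1.29e-05) and 1.26 ± 0.28 at 30 min (adjusted p = 8.67e-04), and the 30 min call was lost without the third 30 min kidney, at 0.83.

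Col3a1, the chain of type III collagen, which lies beside type I in soft tissues, had nearly the same course. It was 5.87, 3.69 and 4.77 FPKM in sham, 42.8, 43.5 and 22.9 FPKM at 16 min, 52.3, 61.9 and 57.0 FPKM at 18 min, and 51.6, 48.6 and 31.2 FPKM at 20 min. It was 43.4, 57.4 and 55.8 FPKM at 22 min, 66.5, 72.3 and 53.1 FPKM at 24 min, and 54.5, 65.4 and 47.0 FPKM at 26 min. At 28 min it was 21.6, 37.8 and 29.7 FPKM, and at 30 min 18.6, 9.39 and 29.4 FPKM. Every clamped kidney again lay above the sham kidneys, and the 28 and 30 min kidneys lay below all those of 24 and 26 min. The log2 fold change was 3.35 ± 0.31 at 24 min (limma adjusted p = 7.76e-07) and 1.58 ± 0.31 at 30 min (adjusted p = 1.93e-04).

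The type V chains, which start and thin the fibers, did not move as a set. Col5a1 rose from 1.01 ± 0.23 FPKM in sham to 7.27 ± 0.79 FPKM at 24 min, with a log2 fold change of 1.90 ± 0.21 (limma adjusted p = 5.44e-06), and was 4.28 ± 1.93 FPKM at 30 min, at 1.203 ± 0.21 (adjusted p = 6.17e-05). The 30 min call of Col5a1 was lost without the third 30 min kidney, at 0.98. Col5a3, a rarer type V chain, was called higher from 18 to 26 min, with its highest mean of 3.34 FPKM at 20 min against 0.593 FPKM in sham (log2 fold change 1.34 ± 0.15, limma adjusted p = 8.39e-06). Its 26 min call was lost without the third sham kidney, at 0.96. Col5a2, the partner of Col5a1 in the main type V molecule, was called at no time and had its highest mean in sham. Col5a2 was 4.39, 10.04 and 8.81 FPKM in sham, 5.05, 4.31 and 6.74 FPKM at 16 min, 5.31, 5.47 and 4.12 FPKM at 24 min, 3.30, 3.88 and 3.34 FPKM at 28 min, and 3.34, 2.82 and 6.46 FPKM at 30 min. The sham kidneys differed more among themselves than any clamped group, the first lying within the range of the clamped kidneys. Its log2 fold change was -0.998 ± 0.23 at 28 min, just short of the fold threshold (limma adjusted p = 1.07e-03), and -0.84 ± 0.23 at 30 min (adjusted p = 3.69e-03). Without the first sham kidney the values were -1.31 and -1.15, past the threshold.

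Col27a1, a fibrillar chain best known from cartilage, was the remaining fibrillar chain above 1 FPKM. It was 7.79 FPKM in sham, between 13.3 and 15.2 FPKM on average from 16 to 26 min, and 8.17 and 8.35 FPKM at 28 and 30 min, where the second 30 min kidney alone held 14.2 FPKM. It was called at no time, with log2 fold changes of 0.77 at 20 min (limma adjusted p = 0.06) and -0.15 at 30 min (adjusted p = 0.698). The lower fibrillar chains Col11a2 and Col24a1 had group means of at most 0.327 and 0.303 FPKM.

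**Figure D2:**
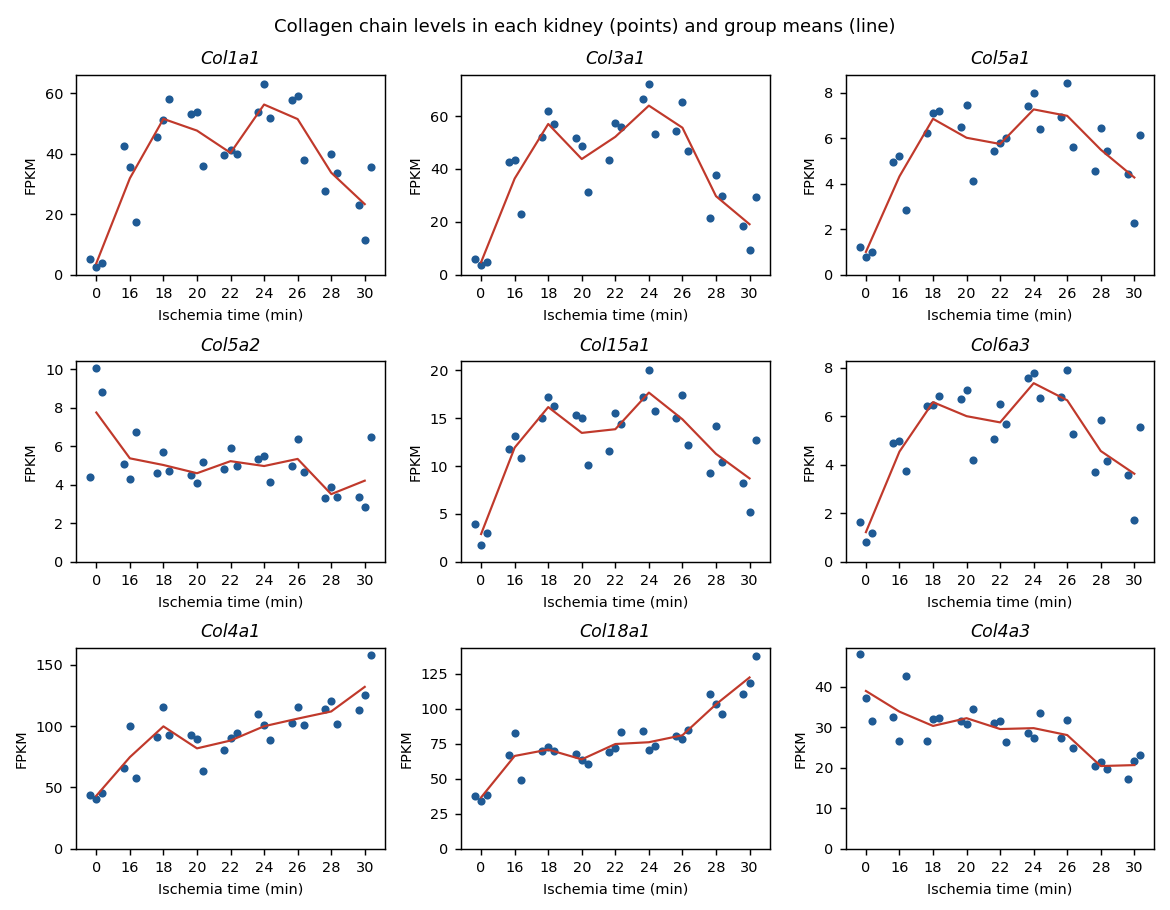
FPKM (vertical axes, each from 0) of 9 collagen chains in each of 27 kidneys (blue points, 3 a time) by ischemia time in min, with group means joined by a red line. Col1a1, Col3a1 and Col5a1 are highest from 18 to 26 min, Col4a1 and Col18a1 are highest at 30 min, and Col5a2 and Col4a3 are highest in sham.

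Ratios between chains of a kidney show how the courses differ. Per kidney, Col1a1 over Col1a2 was 0.438 to 0.533 in sham and 0.780 to 1.36 at 16 min, and its mean was 1.28 at 26 min and 1.04 at 30 min. No clamped kidney overlapped the sham kidneys in this ratio. Col5a2 over Col5a1 was 3.57 to 13.0 in sham and 0.643 to 0.715 at 24 min, and 0.757 to 1.24 at 30 min. Col3a1 over Col1a1 stayed within a narrower range, from 1.16 to 1.44 in sham, 1.02 to 1.23 at 24 min and 0.806 to 0.826 at 30 min. With 3 kidneys against 3, an exact permutation test of a ratio cannot go below 0.1, so the ratios are given as descriptions.

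Of the type IV chains, the pair Col4a1 and Col4a2 and the pair Col4a3 and Col4a4 went opposite ways, and Col4a5 and Col4a6 were called at no time. Col4a1 was 43.5, 40.3 and 45.6 FPKM in sham, 66.1, 99.9 and 58.1 FPKM at 16 min, 91.3, 116 and 92.7 FPKM at 18 min, and 92.5, 89.5 and 63.6 FPKM at 20 min. It was 80.4, 90.0 and 94.4 FPKM at 22 min, 110, 101 and 88.4 FPKM at 24 min, and 102, 115 and 101 FPKM at 26 min. It was 114, 120 and 102 FPKM at 28 min and 113, 125 and 158 FPKM at 30 min. Every clamped kidney was above sham, and Col4a1 had its highest mean at the longest ischemia time, where Col1a1, Col1a2, Col3a1 and Col5a1 had theirs at 24 min. Col4a1 was called higher at 18, 24, 26, 28 and 30 min, with a log2 fold change of 1.61 ± 0.18 at 30 min (limma adjusted p = 2.86e-07). Its 18 and 24 min calls lay close to the fold threshold, at 1.08 and 1.09, and were lost without the second 18 min kidney (0.98) or the first 24 min kidney (0.99).

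Col4a2 rose beside Col4a1, from 30.6 ± 2.91 FPKM in sham to 67.0 ± 4.22 FPKM at 28 min and 88.8 ± 17.7 FPKM at 30 min. It was called at 28 min (log2 fold change 1.02 ± 0.15, limma adjusted p = 1.3e-05) and at 30 min (1.49 ± 0.15, adjusted p = 7.33e-08). The 28 min call was lost without the second sham kidney, at 0.95, or without the first or second 28 min kidney, at 0.999 and 0.98. The ratio Col4a2 over Col4a1 stayed between 0.578 and 0.747 in all 27 kidneys. Within that range it was lower after clamping, with a mean of 0.708 in sham and 0.599 at 28 min. No kidney from 18 to 28 min overlapped sham in it.

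Col4a3 and Col4a4 went the other way. Col4a3 was 48.0, 37.3 and 31.6 FPKM in sham, 32.4, 26.5 and 42.6 FPKM at 16 min, 28.5, 27.4 and 33.4 FPKM at 24 min, 27.4, 31.9 and 24.9 FPKM at 26 min, 20.3, 21.3 and 19.6 FPKM at 28 min, and 17.2, 21.6 and 23.1 FPKM at 30 min. The 28 and 30 min kidneys lay below all sham kidneys, and the 16 to 26 min groups lay between or overlapped them. The log2 fold change was -1.001 ± 0.16 at 28 min (limma adjusted p = 4.31e-05) and -0.95 ± 0.16 at 30 min (adjusted p = 5.89e-05). The 28 min call rests on the threshold, since it was lost without quantile normalization (-0.88), on the TPM scale (-0.91), without the first sham kidney (-0.84), without the third 28 min kidney (-0.97) and without the kidneys with adipocyte markers (-0.999). Without the third kidneys of the 0, 16 and 30 min groups the 30 min value was -1.18. Col4a4 changed by -0.93 ± 0.15 at 28 min (limma adjusted p = 2.93e-05) and -0.85 ± 0.15 at 30 min (adjusted p = 5.86e-05), short of the fold threshold, and by -1.06 and -1.05, past it, without the third kidneys of the 0, 16 and 30 min groups. Col4a4 over Col4a3 was 0.863 to 1.07 in every kidney, so the pair kept its proportion. Col4a3 over Col4a1 had a mean of 0.907 in sham, 0.264 at 26 min and 0.157 at 30 min, and no kidney from 18 min on overlapped sham.

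Markers of podocytes, which are cells of the glomerulus, and of tubules are set beside this pair. The 6 podocyte markers summed to 48.9, 65.6 and 67.7 FPKM in sham and 82.5, 138 and 140 FPKM at 30 min. Of these, 1 was called higher at 30 min and 0 lower, where 5.14% and 5.59% of all genes were. Of 6 proximal tubule markers 5 were called lower at 30 min, and of 6 loop and distal nephron markers 3 were. The part of any of these cells in the Col4a3 result was not tested. Col4a5, the X-linked chain that joins Col4a3 and Col4a4, was 7.67 FPKM in sham and 8.18 FPKM at 30 min, with a log2 fold change of -0.02 (limma adjusted p = 0.93). Col4a6, its neighbor, was lower, with group means from 0.387 FPKM in sham to 0.830 FPKM at 30 min, and was not called.

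**Figure D3:**
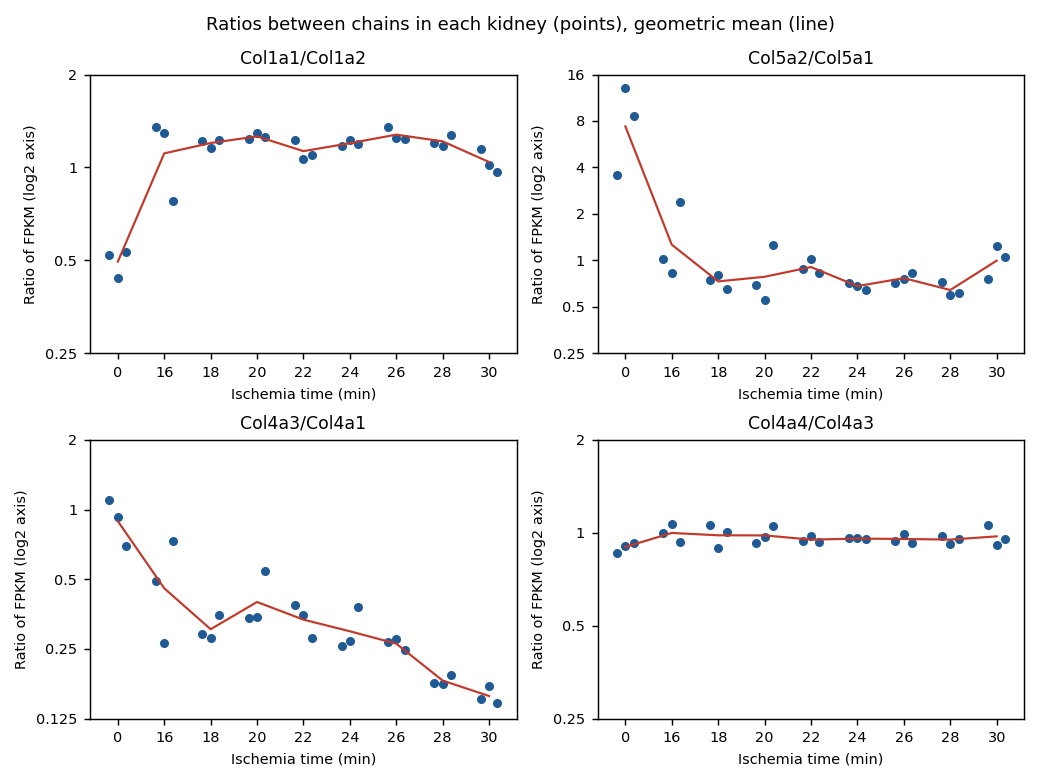
Ratio of FPKM between pairs of chains in each kidney (blue points) by ischemia time in min, on log2 axes, with the geometric mean of 3 kidneys as a red line. Col1a1 over Col1a2 is higher in all clamped kidneys than in sham, Col5a2 over Col5a1 is lower in all of them, Col4a3 over Col4a1 is lower from 18 min on, and Col4a4 over Col4a3 stays between 0.863 and 1.07.

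The basement membrane zone chains Col15a1 and Col18a1 are relatives, with a core of collagen repeats broken by other sequence and an end piece that can be released, endostatin in the case of Col18a1. Col15a1 was 3.92, 1.73 and 3.02 FPKM in sham, 11.8, 13.2 and 10.8 FPKM at 16 min, 17.2, 20.0 and 15.8 FPKM at 24 min, 9.25, 14.1 and 10.4 FPKM at 28 min, and 8.25, 5.15 and 12.7 FPKM at 30 min. All clamped kidneys were above sham, and the highest mean was at 24 min, as for Col1a1, Col1a2, Col3a1 and Col5a1. Its log2 fold change was 1.65 ± 0.23 at 16 min (limma adjusted p = 1.34e-04), 2.16 ± 0.23 at 24 min (adjusted p = 3.93e-06) and 1.16 ± 0.23 at 30 min (adjusted p = 2.68e-04). The 30 min call was lost without the second sham kidney (0.94) or the third 30 min kidney (0.88).

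Col18a1 was 37.4, 34.3 and 38.0 FPKM in sham, 67.0, 82.7 and 48.9 FPKM at 16 min, 84.0, 70.7 and 73.4 FPKM at 24 min, 80.2, 78.3 and 84.6 FPKM at 26 min, 110, 103 and 95.9 FPKM at 28 min, and 111, 118 and 138 FPKM at 30 min. The clamped kidneys were all above sham, and those at 28 and 30 min were above all others. It was called from 26 min on, at 1.05 ± 0.13 (limma adjusted p = 1.71e-05), 1.39 ± 0.13 at 28 min (adjusted p = 7.33e-08) and 1.72 ± 0.13 at 30 min (adjusted p = 2.23e-09). Before 26 min its log2 fold changes were 0.70 to 0.92. Col15a1 over Col18a1 averaged 0.0782 in sham, 0.234 at 24 min and 0.0701 at 30 min. Col7a1, the anchoring fibril chain, was at most 0.737 FPKM on average and was not called.

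Type VI collagen forms beaded filaments around cells, from Col6a1, Col6a2 and a further chain. Col6a3 was called higher from 16 to 28 min, from 1.22 ± 0.40 FPKM in sham to 7.36 ± 0.56 FPKM at 24 min (log2 fold change 1.77 ± 0.21, limma adjusted p = 1.33e-05). At 30 min Col6a3 was 3.58, 1.72 and 5.57 FPKM, above the 1.62, 0.83 and 1.2 FPKM of sham, with 0.86 ± 0.21 (adjusted p = 1.97e-03), and past the threshold without the second 30 min kidney, at 1.15. Col6a1 and Col6a2 were called at 18 and 24 min alone, with log2 fold changes of 1.07 and 1.18 at 18 min (limma adjusted p = 7.79e-03 and 3.23e-03) and 1.05 and 1.07 at 24 min (adjusted p = 8.14e-03 and 6.08e-03). Leaving out the second sham kidney ended the Col6a1 calls (0.99 at 18 min, 0.97 at 24 min) and the 24 min call of Col6a2 (0.99), and leaving out the second 24 min kidney ended both 24 min calls (0.88 and 0.98). The Col6a1 call at 24 min was also lost without the third sham kidney, at 0.995. At 30 min the third kidney held 12.7 FPKM of Col6a1 and 10.1 FPKM of Col6a2, against 4.59 and 3.55, and 3.64 and 2.48 FPKM in the other two. This was the kidney with the high smooth muscle markers. Of the alternatives to Col6a3, Col6a4 and Col6a5 were near 0. Col6a6 was 0.53, 0.20 and 0.15 FPKM in sham and was listed at 0 in all 3 kidneys at 30 min, a difference of -0.41 on the log2(FPKM + 1) scale (limma adjusted p = 1.02e-04).

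The fibril-associated chains coat the fibers and each took its own course. Col12a1, a chain of tension-bearing tissue, was 0.64, 0.57 and 0.92 FPKM in sham, 1.11, 1.19 and 1.31 FPKM at 16 min, 1.56, 1.46 and 1.54 FPKM at 26 min, 2.27, 2.06 and 1.87 FPKM at 28 min, and 3.02, 2.44 and 5.06 FPKM at 30 min. The 30 min kidneys lay above all others, with the third kidney highest. Col12a1 was called at 30 min, with a log2 fold change of 1.25 ± 0.15 (limma adjusted p = 5.99e-07). Col14a1, its close relative, was 2.53, 2.62 and 2.77 FPKM in sham, 4.75, 7.31 and 4.66 FPKM at 18 min, 5.40, 6.2 and 2.74 FPKM at 26 min, and 1.65, 0.73 and 2.17 FPKM at 30 min. It was above sham in each 18 min kidney and below it in each 30 min kidney, and was not called against sham (0.69 at 18 min, limma adjusted p = 0.0895, and -0.69 at 30 min, adjusted p = 0.0565). Col16a1 had means of 2.68 FPKM in sham, 5.98 FPKM at 26 min and 3.14 FPKM at 30 min, with log2 fold changes of 0.79 ± 0.09 at 26 min (limma adjusted p = 9.34e-06) and 0.05 at 30 min (adjusted p = 0.703), under the fold threshold at each time.

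Of the remaining chains, Col8a1, a network chain of vessel walls, was called higher at 18, 26, 28 and 30 min. It was 0.73, 0.85 and 1.17 FPKM in sham, 3.28, 4.96 and 3.11 FPKM at 26 min, and 2.87, 2.65 and 5.46 FPKM at 30 min. The log2 fold change was 1.16 ± 0.28 at 26 min (limma adjusted p = 4.03e-03) and 1.12 ± 0.28 at 30 min (adjusted p = 2.25e-03). The 26 min call was lost without the second 26 min kidney (0.99), the 30 min call without the third 30 min kidney (0.88), and the 18 min call, at 1.0002 just past the threshold, without the first or second sham kidney (0.91 and 0.998) or the second 18 min kidney (0.82). Col26a1 ranged from 1.75 FPKM at 28 min to 2.95 FPKM at 22 min and was not called.

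The transmembrane chains Col13a1 and Col23a1, which stay anchored in the cell membrane, went in opposite directions at low levels. Col13a1 was 0.48, 0.53 and 0.38 FPKM in sham, 0.54, 0.87 and 0.29 FPKM at 26 min, 0.63, 0.41 and 0.43 FPKM at 28 min, and 0.90, 2.38 and 2.21 FPKM at 30 min. Its 30 min kidneys lay above all others, and its log2 fold change at 30 min was 0.83 ± 0.17 (limma adjusted p = 3.20e-04), or 1.10 without the first 30 min kidney. Col23a1 was 1.12, 1.08 and 0.80 FPKM in sham, 0.15, 0.09 and 0.26 FPKM at 28 min, and 0.18, 0.11 and 0.20 FPKM at 30 min. It lay below sham in each clamped kidney, by -0.46 at 16 min (limma adjusted p = 3.48e-03) to -0.91 ± 0.10 at 30 min (adjusted p = 2.84e-07). At such levels the added pseudocount of 1 FPKM makes the fold change smaller than the ratio of the means, which was 0.163 for Col23a1 at 30 min. With a pseudocount of 0.1 FPKM, 17 chains were called at 30 min, 14 higher and 3 lower. The calls over all 18188 genes grew as well, to 1613 higher and 1663 lower, from 934 and 1016 with 1 FPKM. The larger chain count is thus not particular to collagen.

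Summed by class, the 11 fibrillar chains were 33.6 ± 2.95 FPKM in sham, 197 ± 19.7 FPKM at 24 min, 111 ± 20.8 FPKM at 28 min and 84.6 ± 35.3 FPKM at 30 min. The 6 type IV chains were 156 ± 16.5 FPKM in sham, 231 ± 10.8 FPKM at 24 min and 270 ± 45.8 FPKM at 30 min. The other 26 chains were 59.3 ± 4.87 FPKM in sham, 137 ± 7.60 FPKM at 24 min and 165 ± 31.0 FPKM at 30 min. The fibrillar share of all collagen chain FPKM was 13.5% in sham, 34.8% at 24 min, 22.9% at 28 min and 15.9% at 30 min, so that its 30 min value lay nearer to sham than to 24 min. The type IV share was 62.6% in sham, 40.9% at 24 min and 52.3% at 30 min. These sums are of the deposited FPKM, so the abundant chains weigh most in them.

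**Figure D4:**
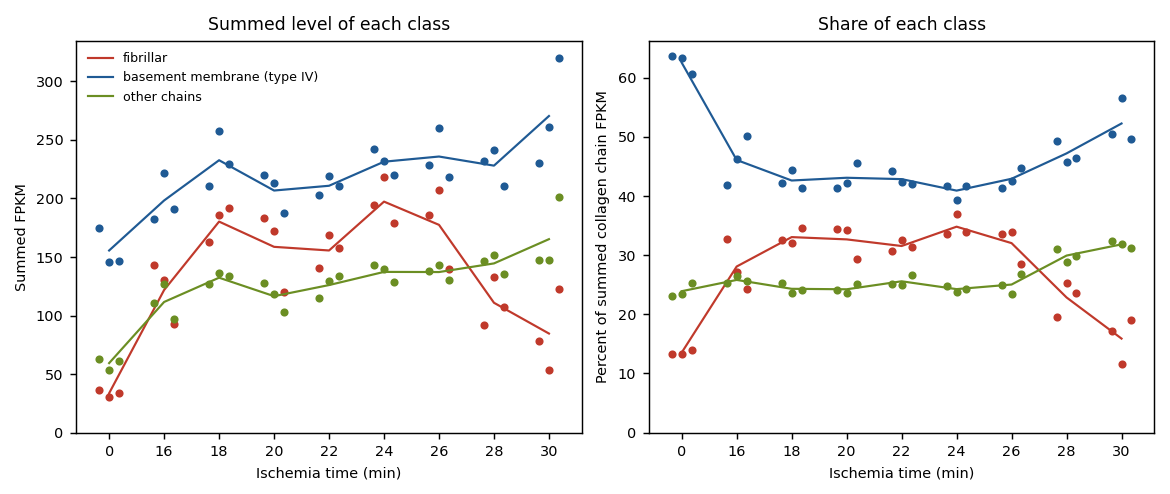
Summed FPKM of fibrillar chains (red), type IV chains (blue) and other chains (green) in each kidney (points) with group means (lines), by ischemia time in min, and, at the right, each class as a percent of all collagen chain FPKM. The fibrillar sum has its highest mean of 197 FPKM at 24 min and a mean of 84.6 FPKM at 30 min, while the type IV sum is highest at 30 min.

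To ask whether chains moved with ischemia time among the clamped kidneys, a slope per min was fitted over the 18 kidneys from 16 to 26 min. No chain was called, and 0.011% of all genes were, 2 in number. At an unadjusted p under 0.05, 13 of 43 chains (30.2%) had a slope in limma, as did 8.81% of all genes. The comparison of 26 with 16 min called 0 chains and 0% of all genes in limma, with 11 chains (25.6%) and 9.44% of all genes at an unadjusted p under 0.05. Of the 11 fibrillar chains, 8 had a positive slope and 4 an unadjusted p under 0.05 in limma. Col1a1 was 31.9 ± 13.1 FPKM at 16 min and 51.5 ± 11.9 FPKM at 26 min. The third 16 min kidney, which was low in injured tubule markers, held 17.3 FPKM of it, against 42.7 and 35.7 FPKM in the others. The shares at an unadjusted p are not given without that kidney. With these shares, the lack of calls does not show a constant level over these times, and a rise with time is not shown either.

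Across the later steps, 28 against 26 min called 0 chains in limma, where 1.5% of all genes were called, and 30 against 28 min called 0 chains, where 1.05% were called. At an unadjusted p under 0.05 there were 10 chains (23.3%) in each of these steps, below the 31% and 26.8% of all genes at that level. Col3a1 was the chain furthest down from 26 to 28 min, at -0.94 ± 0.31 (limma adjusted p = 0.035), and was past the fold threshold without the third 26 min kidney (-1.06) or the second 28 min kidney (-1.14). Without the third 26 min kidney Col27a1 was called lower as well, at -1.01. Col13a1 was called from 28 to 30 min without the first 30 min kidney (1.14), and Col3a1 was called lower without the third (-1.03).

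For the pair 30 and 26 min, a comparison chosen after the courses were seen, 3 chains were called lower and none higher, where 5.19% of all genes were called in either direction. They were Col3a1 (-1.60 ± 0.31, limma adjusted p = 3.43e-04), Col1a1 (-1.18 ± 0.32, adjusted p = 6.45e-03) and Col14a1 (-1.16 ± 0.30, adjusted p = 4.04e-03). Without the third 30 min kidney 6 chains were called, adding Col1a2 (-1.33), Col15a1 (-1.04) and Col6a3 (-1.04), and without the third 26 min kidney 5 were called. The Col1a1 and Col14a1 calls were lost without the second 30 min kidney, at -0.76 and -0.94, and that of Col14a1 also without the second 26 min kidney, at -0.98. Col18a1 was higher by 0.68 ± 0.13 at 30 than at 26 min (limma adjusted p = 4.19e-04) and Col12a1 by 0.82 ± 0.15 (adjusted p = 2.08e-04), both short of the fold threshold. The 6 fibroblast markers summed to 32.2 to 34.3 FPKM at 26 min and to 21.0, 16.2 and 38.2 FPKM at 30 min, and the 7 smooth muscle and pericyte markers to 81.8 to 114 FPKM and to 197, 144 and 470 FPKM. Col1a1 in the same 30 min kidneys was 23.1, 11.4 and 35.6 FPKM. The part of either set of cells in the fall of Col1a1 and Col3a1 was not tested.

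Between 30 and 16 min, the longest and the shortest ischemia, 2 chains were called, both higher, where 6.23% of all genes were called. They were Col12a1 (1.01 ± 0.15, limma adjusted p = 1.73e-05) and Col13a1 (1.05 ± 0.17, adjusted p = 4.51e-05). The Col12a1 call was lost without the first or second 16 min kidney (0.98 and 0.99), without the third 30 min kidney (0.80) and without the 3 kidneys that stood apart (0.86). The Col13a1 call was lost without the first or second 16 min kidney (0.96 and 0.997) and without the second or the third 30 min kidney (0.87 and 0.96). The count was 0 without the first 16 min kidney, 4 without the second 16 min kidney, where Col4a1, Col4a2, Col8a1 and Col18a1 took the place of the named pair, 4 without the third, 7 without the first 30 min kidney, 5 without the second and 1 without the third. The chains gained without the first 30 min kidney were Col4a1, Col4a2, Col18a1 and Col8a1, which lay between 0.93 and 0.99 with all kidneys, and Col3a1, called lower at -1.004 against -0.97. Without the 3 kidneys that stood apart Col3a1 was called lower at -1.62, and the count was 1 higher and 2 lower.

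Genes that make, modify and cross-link collagen were followed as a list of 29. Of these, 1 was called higher at 16 min, 3 at 18 min, 2 at 20 and 22 min, 5 at 24 min, 3 at 26 and 28 min and 5 at 30 min, and 1 was called lower, at 30 min. Over all genes 1.28% were called higher at 16 min and 5.14% at 30 min, and 5.59% were called lower at 30 min, so the 1 lower of 29 lay under that share. Serpinh1, the chaperone of newly made collagen chains, was called at all 8 times and had 42.3 ± 4.32 FPKM in sham and 119 ± 16.5 FPKM at 30 min (log2 fold change 1.49 ± 0.19, limma adjusted p = 1.43e-06). Bmp1, which trims the ends of fibrillar chains, was higher by 1.18 ± 0.15 at 30 min (limma adjusted p = 1.78e-06), and Loxl1, a cross-linking enzyme, by 1.14 ± 0.21 (adjusted p = 9.01e-05). P3h2, which hydroxylates prolines of type IV chains, was the gene called lower, from 55.1 ± 3.57 FPKM in sham to 21.0 ± 2.46 FPKM at 30 min (-1.43 ± 0.15, limma adjusted p = 1.64e-07). From 26 to 30 min, where Col1a1 and Col3a1 fell, the change of Serpinh1 was -0.04 ± 0.19 (limma adjusted p = 0.911).

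Of 10 collagen receptor genes, 1 was called higher at 18, 24 and 30 min and none at the other times, where 1.97%, 1.97% and 5.14% of all genes were, so that nothing is read from the count. Itgb1, the beta subunit of the collagen-binding integrins, was 66.5 ± 2.58 FPKM in sham and 141 ± 5.92 FPKM at 30 min (1.11 ± 0.10, limma adjusted p = 3.28e-08), whereas the 18 and 24 min call was Mrc2, a receptor that takes up collagen (1.03 and 1.07).

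Of 16 genes for the proteins that share the basement membrane with type IV collagen, 1 or 2 were called higher from 16 to 26 min, 3 at 28 min and 6 at 30 min, and none lower. The share of all genes called higher also grew, from 1.28% at 16 min to 4.27% at 28 min and 5.14% at 30 min. Sparc, which binds collagen, went from 54.9 ± 3.61 FPKM in sham to 280 ± 24.0 FPKM at 30 min (2.36 ± 0.16, limma adjusted p = 6.47e-10). The laminin chain Lamb3 (1.67 ± 0.31 at 30 min, limma adjusted p = 1.35e-04) was called at 28 and 30 min, the times at which Col4a2 was called, and Nid1, which links laminin to type IV collagen, was higher by 1.37 ± 0.17 at 30 min (adjusted p = 1.04e-06).

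Of 23 genes for partners of the fibers, 5 to 9 were called higher at each time, and 1 was called lower from 16 to 26 min and 5 at 28 and 30 min. Of all genes, 0.979% were called lower at 16 min, 4.21% at 28 min and 5.59% at 30 min. The share of all genes called higher was 1.28% at 16 min, 4.27% at 28 min and 5.14% at 30 min. Ccn1 (3.37 ± 0.39 at 30 min, limma adjusted p = 4.31e-07), Ccn2 (2.82 ± 0.28, adjusted p = 7.21e-08) and Tnc (2.80 ± 0.31, adjusted p = 2.33e-07) had their largest changes at 30 min. The mean sum of the fibrillar chains was then below its 24 min level. Ccn1 and Ccn2 are secreted regulators of matrix and Tnc is a matrix glycoprotein of injured tissue. Fmod, a small proteoglycan on collagen fibers, was called lower at each time, from 5.71 ± 0.13 FPKM in sham to 0.287 ± 0.245 FPKM at 30 min (-2.52 ± 0.20, limma adjusted p = 3.95e-09).

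**Figure D5:**
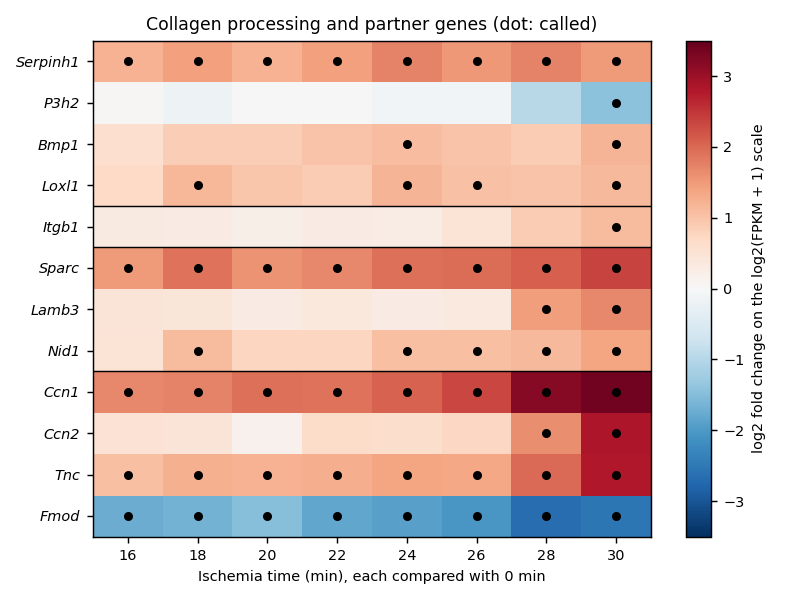
Log2 fold change on the log2(FPKM + 1) scale of 12 genes (rows) at each ischemia time against 0 min (columns), red higher and blue lower, with a black dot where called. From the top the rows are processing genes, the receptor Itgb1, basement membrane partners and fiber partners, and Serpinh1, Sparc, Ccn1, Tnc and Fmod have dots at all 8 times.

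Cell type markers also differed between the ischemia times. Beside the counts below, 5.14% of all genes were called higher and 5.59% lower at 30 min. At 28 min 4.21% were called lower, and at 24 min 1.97% were called higher. The 5 injured tubule markers were 15.8 to 90.1 FPKM in sham and 2518 to 4918 FPKM at 30 min, with 4 called higher. The 6 loop and distal nephron markers had 3 called lower at 28 and 30 min, and 2 of 5 neutrophil markers were called higher at 30 min. Of 6 leukocyte markers, 2 were called higher and 1 lower at 30 min. The 7 smooth muscle and pericyte markers summed to 33.9 to 41.3 FPKM in sham, 99.0 to 124 FPKM at 24 min and 144 to 470 FPKM at 30 min, and 5 of 7 were called higher at 30 min. The 6 endothelial markers were 80.7 to 98.6 FPKM in sham and 116 to 170 FPKM at 30 min with none called, and the 6 proximal tubule markers were 2678 to 3028 FPKM in sham and 656 to 777 FPKM at 30 min, with 5 called lower. The 6 fibroblast markers were 29.0 to 31.4 FPKM in sham and 35.6 to 48.2 FPKM at 24 min, with 1 called higher there and 1 called lower at 28 and 30 min, Dcn at 30 min. The part of these cell types in the chain levels was not tested.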

How the data were processed

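RNA-Seq of 27 left kidneys was done by the authors. For each gene symbol and mouse the authors deposited an FPKM value, on a linear scale, which the paper calls RPKM. The submitters' processing notes name Bowtie2, RSEM, DESeq2 and the build GRCm38.p6, without versions. The annotation is not given in the sources used here. Read counts were not used here, so depth per kidney is unknown and precision rests on 3 mice a group. Kidneys were grouped by ischemia time in their labels. Values were taken as log2(FPKM + 1), quantile normalized and fitted in limma 3.58.1 (R 4.3.3) with 1 mean per time over 18188 genes above 0 in at least 3 kidneys. Sums and ratios used the deposited FPKM. Labels give no batch. The collagen chains, gene lists and comparisons were chosen with earlier results of these data known. Chains called at any time, and chains with a mean of at least 1 FPKM, are named, and from each list at most 4 members, those called at 30 min with the largest change (Mrc2 was added after its values were seen). A gene of the basement membrane partner list is not reported here and was left out of its counts. The fit was tested on simulated data. Alternatives changed the pseudocount, scaling, filter, kidneys fitted, threshold, trend and replicate block. Figures used matplotlib 3.10.9.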

Additional observations from a re-analysis of the deposited data

Results flagged for a closer look

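The effects of 2 ischemia times against sham differed, by the test of the difference itself (limma, adjusted over all genes), for 5 collagen chains. Between 30 and 16 min 4.65% of chains were called, where 6.23% of all genes were. Between 30 and 26 min it was 6.98% of chains and 5.19% of all genes. The counts are therefore not read as a result about the chains. Between 30 and 16 min, Col12a1 was higher by 1.01 and Col13a1 by 1.05 on the log2(FPKM + 1) scale, in 3 of 3 kidneys at 30 min above all 3 at 16 min. Both calls were lost when the first or second 16 min kidney or the third 30 min kidney was left out, and that of Col13a1 also without the second 30 min kidney. The Col12a1 call was also lost without quantile normalization (0.99). That of Col13a1 was lost when only the 2 groups were fitted (limma adjusted p = 0.0606). Between 30 and 26 min, Col3a1 differed by -1.60, Col1a1 by -1.18 and Col14a1 by -1.16, in 3 of 3 kidneys at 30 min below all 3 at 26 min. The Col1a1 and Col14a1 calls were lost without the second 30 min kidney, and that of Col14a1 also without the second 26 min kidney. Both were also lost when only the 2 groups were fitted (limma adjusted p = 0.12 for Col1a1 and 0.055 for Col14a1). The second set comes from a comparison chosen after the courses were seen. Groups of 3 kidneys were too small for a test of single outlying kidneys.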

How the results depend on the processing

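Over 180 results on single chains and 2869 alternative values, 0 changed direction, and 118 calls were gained and 56 lost against the fold or adjusted p threshold. The counts of called chains changed by over 1.5 times as follows, and beyond the fewer kidneys or looser threshold the cause was not tested. With no fold threshold, the counts were 13 at 16 min, 19 at 18 and 20 min, 18 at 22 min, 20 at 24 and 26 min, 23 at 28 min and 24 at 30 min against sham, 4 from 26 to 28 min, 7 from 28 to 30 min, 15 between 16 and 30 min and 19 between 26 and 30 min. The share of all genes called that way is not given here. At an unadjusted p under 0.05 in limma, 46.5% of chains and 31.9% of all genes passed at 16 min against sham. At 28 min 58.1% and 53.2% passed, and at 30 min 65.1% and 56.7%, so the late counts are not read as a result about the chains. With a pseudocount of 0.1 FPKM the chain counts were 11 at 20 min, 17 at 28 and 30 min, 1 from 28 to 30 min, 7 between 16 and 30 min and 5 between 26 and 30 min. Of all genes, 567 were then called higher and 359 lower at 20 min, 1322 and 1304 at 28 min, and 1613 and 1663 at 30 min. It was 172 and 253 from 28 to 30 min, 875 and 1098 between 16 and 30 min, and 718 and 967 between 26 and 30 min. On the TPM scale the chain counts were 11 at 22 min, where 586 genes were called higher and 219 lower. For 30 against 28 min the chain count was 1, where 101 and 155 genes were. With the 2 groups alone the chain counts were 0 at 16 min, 1 between 16 and 30 min and 1 between 26 and 30 min. The pair of 16 and 30 min also gave 1 without quantile normalization and 1 with a filter of 1 FPKM in 3 kidneys. Without the 3 kidneys that stand apart, 30 against 28 min gave 1 and 30 against 26 min gave 6, alternatives chosen after seeing the data. Leaving out 1 kidney gave 6 to 7 chains at 16 min, 9 to 11 at 18 min, 7 to 9 at 20 min, 7 to 8 at 22 min, 8 to 11 at 24 min, 9 to 12 at 26 min, 10 to 12 at 28 min and 8 to 11 at 30 min against sham. It gave 0 to 2 from 26 to 28 min, 0 to 1 from 28 to 30 min, 0 between 16 and 26 min and for the slope, 0 to 7 between 16 and 30 min and 2 to 6 between 26 and 30 min.

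Replicate numbers did not pair the kidneys, since in 0 of 13 comparisons were all 3 correlations of same-numbered kidneys over 0.1 (range -0.302 to 0.270), and a fit with the replicate block kept each count, for example 6 at 16 min and 10 at 30 min, and changed no call. The scaling moved the split of all called genes. At 24 min, 63.1% of them were higher with quantile normalization, 74.3% without it and 76.8% on the TPM scale, and on the TPM scale the share was 70.4% against 56.6% at 16 min, 74.7% against 64.3% at 18 min, 73.1% against 61.7% at 20 min and 70.9% against 57.3% at 26 min. Depth is unknown, so for the 21 chains under 1 FPKM a change below the step of the rounded values was not detectable.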
